A study of Mus musculus with 22 samples.

Results

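Transcripts of the taste transduction cascade, the signalling chain of sweet, bitter and umami taste cells and of tuft cells, were followed in MECs, the medullary epithelial cells of the thymus, of mice after treatment with Etopo, Topo or both. The 7 members were Trpm5, Gnat3, Plcb2, Gnb3, Gng13, Itpr3 and Rgs13, chosen by name as the taste G protein, phospholipase, channels and a regulator. All 7 were among the 19752 genes with a single gene symbol, and each was read by 1 probe that carried no other symbol. In wild-type MECs, 5 of the 7 rose under both drugs together (Gnat3, Trpm5, Plcb2, Gng13 and Rgs13, by 1.08 to 1.55 on the log2 scale), and 4 of these rose under Topo alone. Of all genes, 3.60% were called higher under both drugs and 0.830% under Topo. Itpr3, the calcium release channel, was called in no comparison. In cells without Aire, Gnat3, Gng13 and Rgs13 rose under Topo, though not in every refit, and the rises of Trpm5 and Plcb2 were not called. Under both drugs the level of Trpm5 and Plcb2 was below that of the wild type on the 2 knockout arrays, which differed widely from each other. Both of these differences were no longer called without the lower of the 2 arrays. A difference between genotypes in the drug effect was called for 0 of the 7 members. Few of all genes were called there either: 0% under Etopo, 0.0759% under Topo and 2.46% under both drugs.

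RNA came from C57Bl/6 mice that were Aire+/+ (wild type, WT) or Aire-/- (knockout, KO), and treatment was DMSO, Etopo, Topo or Etopo with Topo (EtopoTopo). DMSO is the solvent used as the vehicle control. The labels do not spell the drugs out. Etopo and Topo are common abbreviations of etoposide, which acts on type II topoisomerases, and topotecan, which acts on topoisomerase I, and doses and times were not used here. MECs were sorted from the thymus as live cells negative for the leukocyte marker CD45, low in the cortical marker Ly51 and high in MHC class II. A gate high in MHC class II takes mature MECs, and nothing in it selects tuft cells, so each array averages whatever tuft cells the gate let through with the other MECs. In such bulk RNA, fewer tuft cells and less cascade RNA per tuft cell cannot be told apart. There were 22 arrays in 8 groups, 3 per group except 2 in KO Etopo and 2 in KO EtopoTopo. The 5 EtopoTopo arrays, WT DMSO 3 and WT Etopo 3 came from mice of 4 weeks and the rest from mice of 6 weeks. No label tells single mice from pools, and the p-values therefore rest on the array-to-array spread alone, technical or not.

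In taste receptor cells and tuft cells, a receptor of the Tas1r or Tas2r family frees the beta and gamma subunits of a G protein whose alpha subunit is gustducin. Those subunits activate phospholipase C beta 2, which makes inositol trisphosphate, and this opens the type 3 inositol trisphosphate receptor to release calcium from the endoplasmic reticulum. Calcium then opens the cation channel TRPM5 and the cell depolarises. Tuft cells are chemosensory epithelial cells of gut, airway and thymus that share this chain, and their fate depends on the transcription factor Pou2f3.

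Median intensity was 236.15 to 263.57 per array. The log2 distance between the 10th and 90th percentiles was 3.89 in KO EtopoTopo 1 and 4.32 to 5.01 on the other arrays, with KO Topo 1 (4.42) the narrowest of the other KO arrays and WT EtopoTopo 2 (4.32) the narrowest of the wild type. The mean log2 level of 16 thymocyte genes reached 8.78 in KO DMSO 1 and 8.33 in WT DMSO 1 and was 7.59 or less elsewhere. WT EtopoTopo 1 and 2 carry both drugs in the title but Etopo only in the treatment label. A male label stands on 3 arrays (the first of WT DMSO, the second of WT Etopo and of WT Topo), while Xist was at 11.38 to 12.56 and above the 3 Y-linked genes measured (6.07 at most) on 22 of 22 arrays. The mean of 19 mature MEC genes lay between 10.64 (KO EtopoTopo 1) and 11.44, and the means of 10 cortical epithelial genes between 9.29 and 9.84. Test results of the members that rest on these arrays are given with and without them. The shares of all genes and the results for all other gene lists, paralogs included, are given with all arrays only. The same holds for the ranking of genes most like the members.

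The G protein of the cascade has 3 members in the set. Gnat3 encodes gustducin, the alpha subunit of taste and tuft cells (chromosome 5, 17962570 to 18019668, in the GRCm38.p6 assembly). Its log2 intensity was 9.21, 8.98 and 9.76 on the WT DMSO arrays, 10.16, 10.03 and 10.55 in WT Etopo, 10.84, 10.56 and 10.60 in WT Topo, and 11.03, 10.98 and 10.59 in WT EtopoTopo. Every drug array of the wild type lay above every DMSO array. Gnat3 rose by 1.35 ± 0.22 log2 units in WT Topo (estimate ± SE of the limma fit, n = 3 against 3, Benjamini-Hochberg adjusted p = 0.00244), a 2.55-fold change. In WT EtopoTopo it rose by 1.55 ± 0.22 (limma adjusted p = 0.000145), or 2.93-fold. Gng13 encodes the gamma subunit that pairs with gustducin in taste cells (chromosome 17, 25717172 to 25719102). It stood at 9.36, 9.29 and 9.50 in WT DMSO, 9.88, 9.78 and 10.18 in WT Etopo, 10.09, 9.82 and 9.98 in WT Topo, and 10.36, 10.53 and 10.60 in WT EtopoTopo. The Etopo and Topo arrays shared one range, and the EtopoTopo arrays lay above both. Gng13 rose by 0.58 ± 0.15 under Topo (limma adjusted p = 0.0436), with 1.11 ± 0.15 under both drugs (adjusted p = 7.21e-05). Gnb3 encodes the beta subunit (chromosome 6, 124834240 to 124840275). Its arrays read 9.79, 10.08 and 10.13 in WT DMSO, 10.64, 10.33 and 10.44 in WT Etopo, 10.94, 10.52 and 10.59 in WT Topo, and 11.01, 10.56 and 10.67 in WT EtopoTopo. Here too every drug array of the wild type lay above the DMSO arrays, but the estimates of 0.69 ± 0.30 under Topo (limma adjusted p = 0.345) and 0.75 ± 0.30 under both drugs (adjusted p = 0.109) were not called. Gnb3 was called under both drugs after quantile normalization (0.91, limma adjusted p = 0.0246), and in fits of the 2 groups alone both under Topo (adjusted p = 0.0339) and under both drugs (adjusted p = 0.00913).

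Plcb2, the phospholipase (chromosome 2, 118705003 to 118728661), read 9.88, 9.82 and 10.29 in WT DMSO, 10.31, 10.47 and 10.86 in WT Etopo, 10.99, 10.67 and 10.71 in WT Topo, and 11.38, 11.44 and 11.30 in WT EtopoTopo. The 3 EtopoTopo arrays stood above all other 19 arrays of the study. Plcb2 rose by 1.38 ± 0.24 in WT EtopoTopo (limma adjusted p = 0.000758), and its estimate of 0.79 ± 0.24 in WT Topo missed the threshold (adjusted p = 0.095). It was called there with age as a term (0.94, adjusted p = 0.0437) and in a fit of the 2 groups alone (adjusted p = 0.0236). Trpm5, the cation channel at the end of the chain (chromosome 7, 143071529 to 143094642), read 9.51, 9.50 and 9.94 in WT DMSO, 10.15, 10.51 and 10.66 in WT Etopo, 10.91, 10.60 and 10.73 in WT Topo, and 11.18, 11.09 and 11.18 in WT EtopoTopo. As for Plcb2, the EtopoTopo arrays were the top of the series, with an SD of 0.053. Trpm5 rose by 1.09 ± 0.24 under Topo (limma adjusted p = 0.0153), with 1.50 ± 0.24 under both drugs (adjusted p = 0.000356), a 2.83-fold change. Rgs13 encodes a regulator that speeds the inactivation of G protein alpha subunits and marks tuft cells (chromosome 1, 144137386 to 144177372). It read 10.46, 9.95 and 10.18 in WT DMSO, 11.02, 11.28 and 10.93 in WT Etopo, 11.50, 11.71 and 11.48 in WT Topo, and 11.24, 11.44 and 11.17 in WT EtopoTopo. The Topo arrays were the highest of the wild type, so the order of treatments was not that of Plcb2 and Trpm5. Rgs13 rose by 1.37 ± 0.20 under Topo (limma adjusted p = 0.00136), with 1.08 ± 0.20 under both drugs (adjusted p = 0.00107).

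Itpr3, the inositol trisphosphate receptor between the phospholipase and the channel (chromosome 17, 27057002 to 27122223), is used by many epithelia outside taste. It read 9.93, 9.95 and 9.79 in WT DMSO, 9.81, 9.75 and 9.75 in WT Etopo, 9.84, 9.66 and 9.88 in WT Topo, and 9.93, 9.55 and 9.70 in WT EtopoTopo. The 4 wild-type groups overlapped. Its change was -0.12 ± 0.16 in WT Etopo, -0.09 ± 0.16 in WT Topo and -0.16 ± 0.16 in WT EtopoTopo, with a 95% interval of -0.50 to 0.17 in the last, and none was called (limma adjusted p = 0.568 in WT EtopoTopo).

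**Figure D1:**
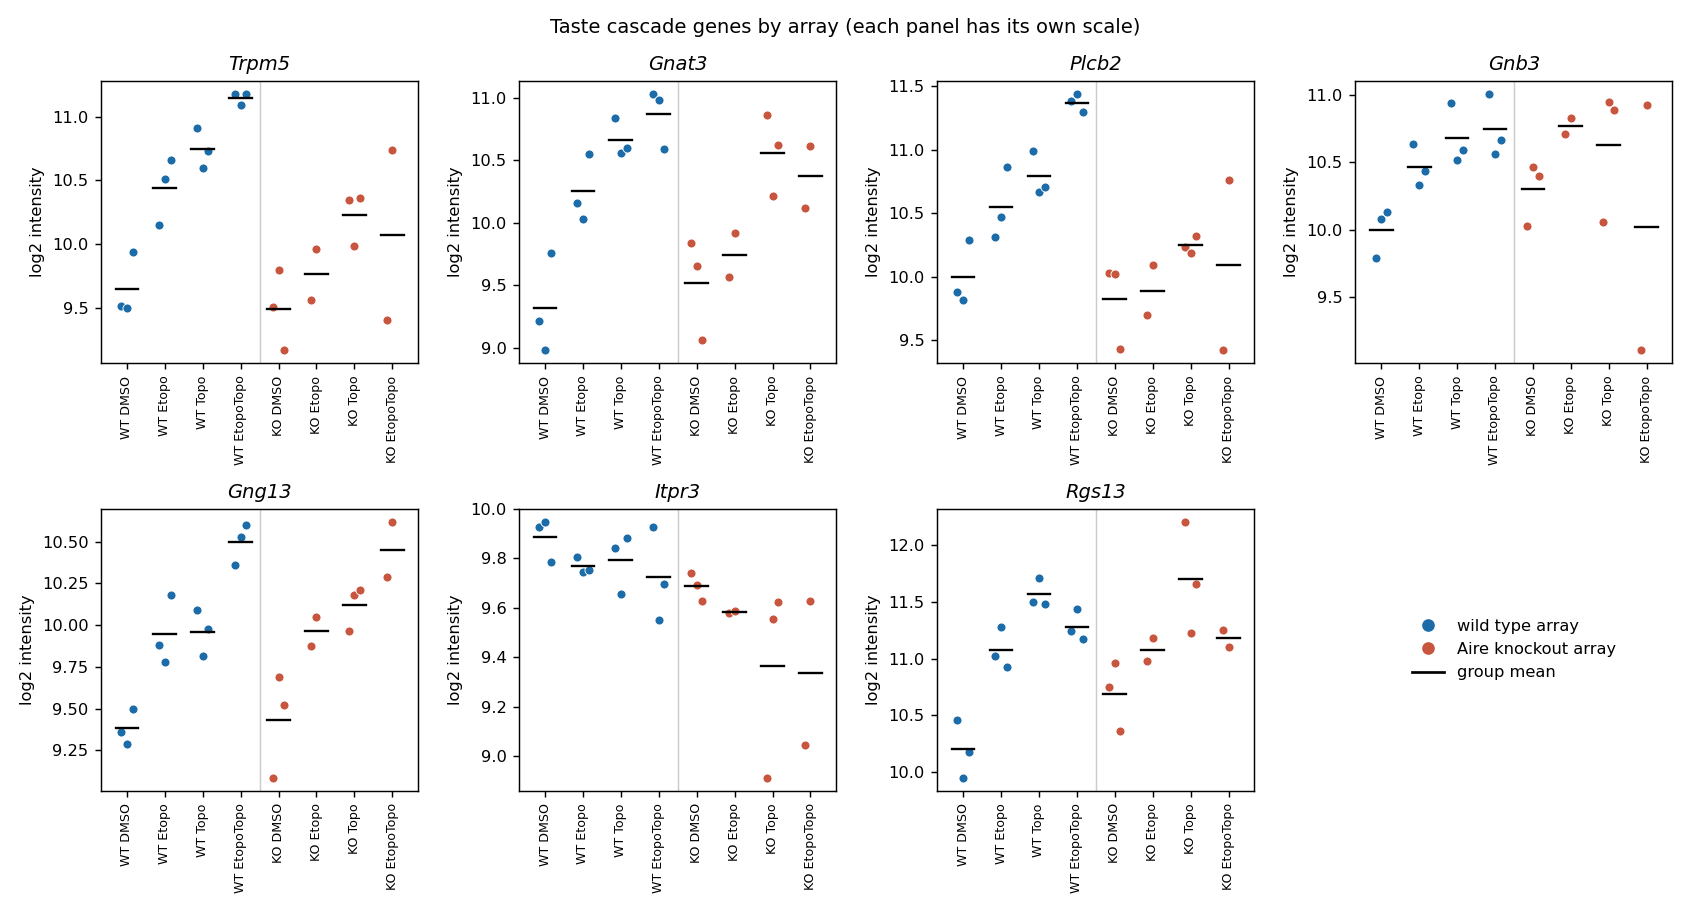
Log2 intensity of the 7 cascade genes on each of the 22 arrays (points), by genotype and treatment, with the mean of each group as a black line. In the wild type 6 of the genes lie higher on every drug array than on every DMSO array, Itpr3 does not, and KO EtopoTopo has one array near the DMSO level for Trpm5 and Plcb2.

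Counted over the members, WT Topo against WT DMSO gave 4 of 7 called higher, where 0.830% of all genes were called higher (limma with Benjamini-Hochberg adjustment over 19752 genes, called at an adjusted p under 0.05). For 6 of 7 members all Topo arrays lay above all DMSO arrays, against 8.56% of all genes. WT EtopoTopo gave 5 of 7 called higher, against 3.60% of genes, and 6 of 7 with all arrays above DMSO, against 12.0%. WT Etopo gave 0 of 7 called, against 0.00506% of genes called higher. At an unadjusted p under 0.05 it gave 5 of 7, against 1097 of 19752 genes in either direction. For 6 of 7 members all Etopo arrays lay above all DMSO arrays, against 4.32% of genes. Same-numbered arrays of WT DMSO and WT Etopo deviated together over all genes (correlations of 0.335 to 0.592), and those numbered 3 were both of 4 weeks. In a fit of these 2 groups with the replicate number as a block, Trpm5 (0.79, limma adjusted p = 0.0332) and Gnat3 (0.93, adjusted p = 0.0272) were called. The median change of the members was 0.56 in WT Etopo, 0.79 in WT Topo and 1.11 in WT EtopoTopo, while the median of all genes was -0.04, 0.00 and -0.01. These 3 comparisons share the WT DMSO arrays.

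The calls differ in how far they rest on single arrays. In WT EtopoTopo, 5 members were called whichever 1 of the 6 arrays was left out, Gnat3 at 1.38 to 1.77 and Plcb2 at 1.29 to 1.53. In WT Topo, the calls of Gnat3 (1.18 to 1.57) and Rgs13 (1.24 to 1.50) also held without any 1 array. Trpm5 was no longer called without WT DMSO 1, WT DMSO 2, WT Topo 1 or WT Topo 3 (1.01 to 1.24 over the 6 fits, limma adjusted p up to 0.107). Gng13 in WT Topo was not called without any 1 of the 6 arrays (0.51 to 0.65, adjusted p up to 0.23). Without both DMSO arrays with thymocyte transcripts, Trpm5 stood at 1.02 (adjusted p = 0.0836) and Gng13 at 0.57 (adjusted p = 0.0706) in WT Topo. Without the 3 arrays labelled male, they stood at 1.10 (adjusted p = 0.165) and 0.64 (adjusted p = 0.188). Without WT EtopoTopo 1 and 2, which leaves 1 array in that group, Trpm5 and Gng13 were still called there and Gnat3 (1.28, adjusted p = 0.0581), Plcb2 (1.31, adjusted p = 0.0758) and Rgs13 (0.97, adjusted p = 0.101) were not.

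Age moved with part of this pattern, since the EtopoTopo groups hold 4-week mice alone. Within WT DMSO, the 4-week array lay above both 6-week arrays for 5 of 7 members, by 0.66 for Gnat3, 0.44 for Plcb2 and 0.43 for Trpm5 over the 6-week mean. Within WT Etopo the same held for 4 of 7 members, by 0.46 for Gnat3, 0.47 for Plcb2, 0.35 for Gng13 and 0.33 for Trpm5. Itpr3 and Rgs13 were not above both 6-week arrays in either group. The share of all genes with the 4-week array above both others was not counted, so these counts have no background beside them. With age as a term in the fit, the 5 calls in WT EtopoTopo held, at 1.24 for Trpm5 (limma adjusted p = 0.0202), 1.18 for Gnat3 (adjusted p = 0.0112), 1.08 for Plcb2 (adjusted p = 0.0425), 0.94 for Gng13 (adjusted p = 0.00558) and 1.16 for Rgs13 (adjusted p = 0.012). That term is estimated only within WT DMSO and WT Etopo, the groups that hold both ages.

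**Figure D2:**
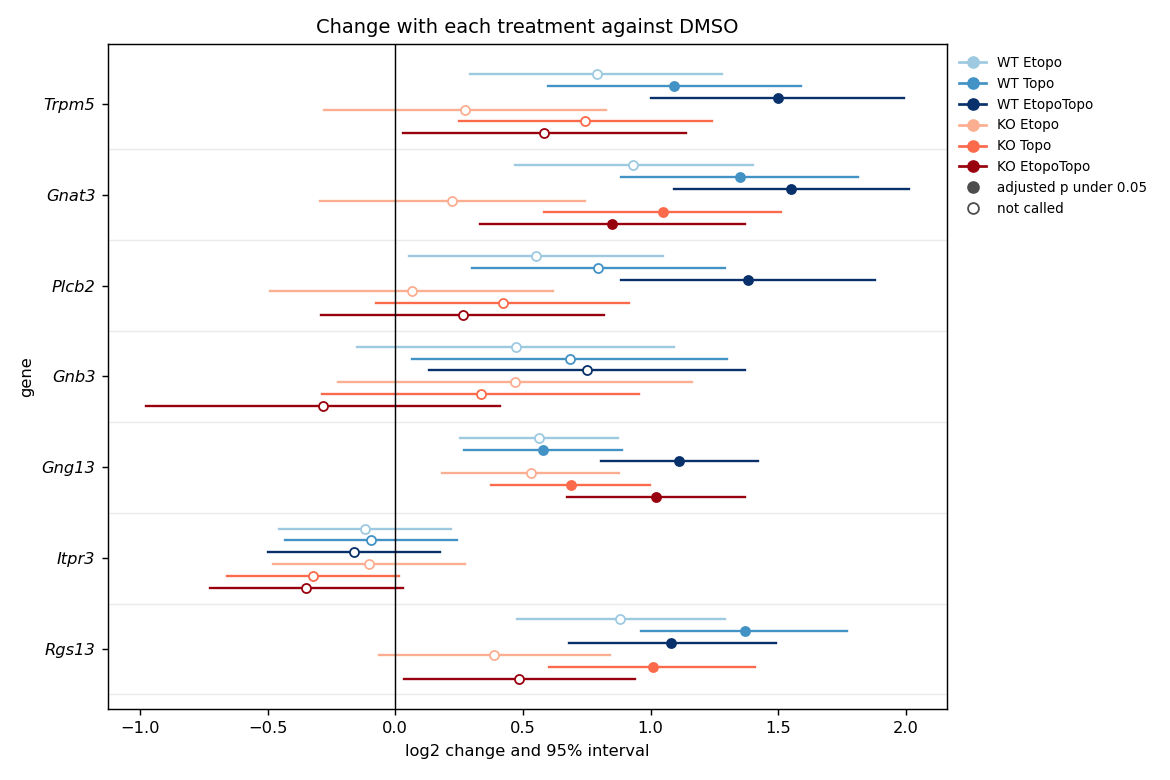
Log2 change of each cascade gene against DMSO of the same genotype (x axis) for the 3 treatments in the wild type (blue) and in the Aire knockout (red), with 95% intervals of the limma fit. Filled points passed an adjusted p under 0.05: 4 in WT Topo, 5 in WT EtopoTopo, 3 in KO Topo and 2 in KO EtopoTopo.

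The stretches before the start sites of 3 members that rose are shown, so that their sequences can be set beside the data. RefSeq promoter windows (assembly GRCm38.p6) matched 6 of the 7 members by gene identifier, and Gnb3 had no entry. The 250 bases before the annotated start, written 5′ to 3′ on the gene's strand, lie at chr7:143094643-143094892 (minus strand) for Trpm5, at chr5:17962320-17962569 (plus strand) for Gnat3 and at chr1:144177373-144177622 (minus strand) for Rgs13.
Trpm5: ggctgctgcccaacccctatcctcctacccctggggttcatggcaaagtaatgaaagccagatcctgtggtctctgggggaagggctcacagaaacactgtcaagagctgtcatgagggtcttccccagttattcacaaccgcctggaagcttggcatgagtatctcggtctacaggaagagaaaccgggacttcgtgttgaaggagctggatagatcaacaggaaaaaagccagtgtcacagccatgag
Gnat3: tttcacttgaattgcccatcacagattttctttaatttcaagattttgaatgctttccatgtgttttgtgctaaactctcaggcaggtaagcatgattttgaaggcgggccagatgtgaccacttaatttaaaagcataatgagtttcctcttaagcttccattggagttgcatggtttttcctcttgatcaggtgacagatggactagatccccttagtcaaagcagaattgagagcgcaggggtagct
Rgs13: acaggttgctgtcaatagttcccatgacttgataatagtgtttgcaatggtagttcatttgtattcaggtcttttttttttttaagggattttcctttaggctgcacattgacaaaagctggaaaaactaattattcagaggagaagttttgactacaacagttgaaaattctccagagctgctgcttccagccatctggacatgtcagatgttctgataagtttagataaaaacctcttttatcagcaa
Each window was searched on both strands for 7 motifs, given with the share of all 32851 windows of this length that hold them. The octamer of POU factors, ATGCAAAT, is in 1.60% of windows, and a relaxed form that takes in the first, ATGNAAAT, in 5.03%. A STAT motif, TTCNNNGAA, is in 7.02%. The core promoter motif TATAAA is in 12.4%. An E-box, read as CAGCTG, is in 13%. The AP-1 motif TGACTCA is in 4.46%. The GC box GGGCGG is in 32.7%. None of these letters occurs in the 3 windows above, nor in the window of Plcb2 or the first of the 2 windows of Gng13, so these sequences carry no capitals. The window of Itpr3, which did not rise in any comparison, holds the octamer on the opposite strand. The octamer lies 27 to 20 bases before a start site inside the gene's annotated span. The stretch around it is printed with the octamer in capitals, at chr17:27057266-27057295 on the plus strand.
Itpr3: tcccaggcgggATTTGCATgtgtgtggcgg
Itpr3 also holds a GC box, and the second window of Gng13 holds 3. Both of these windows lie inside the annotated span of their gene, as does most of the window of Plcb2. The GC content of the windows was 36.0% for Rgs13, 40.8% for Gnat3, 52.8% for Trpm5, 62.0% for Plcb2, 58.8% and 69.2% for Gng13, and 72.0% for Itpr3. A match of letters is no binding site, and its absence from these 250 bases says nothing of a factor.

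The drugs were also compared with each other in the wild type. WT Topo against WT Etopo gave 0 of 7 members called higher (0% of genes). At an unadjusted p under 0.05 it gave 1 of 7, against 878 of 19752 genes in either direction. That member was Rgs13 (0.49 ± 0.20, limma adjusted p = 0.998). WT EtopoTopo against WT Topo gave 0 of 7 (0.137% of genes). At an unadjusted p under 0.05 it gave 2972 of 19752 genes in either direction and 2 of 7 members. These were Plcb2 (0.59 ± 0.24, adjusted p = 0.24) and Gng13 (0.54 ± 0.15, adjusted p = 0.0876), and Rgs13 lay at -0.28 ± 0.20 with all EtopoTopo arrays below all Topo arrays. WT EtopoTopo against WT Etopo gave 1 of 7 (1.25% of genes), Gng13 at 0.55 ± 0.15 (adjusted p = 0.0429). Plcb2 stood at 0.83 ± 0.24 in that comparison (adjusted p = 0.0549) and Trpm5 at 0.71 ± 0.24 (adjusted p = 0.0912). The call of Gng13 was lost without WT Etopo 1 (0.52), WT Etopo 2 (0.47), WT EtopoTopo 2 (0.54) or WT EtopoTopo 3 (0.50), and with age as a term (0.38, adjusted p = 0.554). Without WT Etopo 3, Plcb2 was called as well (0.98, adjusted p = 0.0355). In a fit of these 2 groups alone, Trpm5, Gnat3, Plcb2 and Gng13 were called over Etopo, and Trpm5, Plcb2 and Gng13 over Topo in the fit of those 2 groups. All WT EtopoTopo arrays were of 4 weeks and all WT Topo arrays of 6 weeks. Age and the added Etopo thus cannot be told apart in the latter fit. With age as a term in the fit of all arrays, no member was called in either comparison.

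In cells without Aire, Gnat3, Gng13 and Rgs13 rose under Topo. Gnat3 read 9.84, 9.66 and 9.06 in KO DMSO and 10.86, 10.21 and 10.62 in KO Topo, a rise of 1.05 ± 0.22 (limma adjusted p = 0.0261). Gng13 read 9.09, 9.69 and 9.52 in KO DMSO and 9.96, 10.18 and 10.21 in KO Topo, a rise of 0.69 ± 0.15 (adjusted p = 0.0279). Rgs13 read 10.75, 10.96 and 10.36 in KO DMSO and 12.21, 11.23 and 11.66 in KO Topo, a rise of 1.01 ± 0.20 (adjusted p = 0.0149). In each of these genes every Topo array was above every DMSO array, and the highest array of Rgs13 was KO Topo 1, the narrowest of its group in range. Trpm5 read 9.50, 9.80 and 9.17 in KO DMSO and 10.35, 9.99 and 10.36 in KO Topo (0.74 ± 0.24, adjusted p = 0.167), and Plcb2 stood at 0.42 ± 0.24 (adjusted p = 0.527). Itpr3 had all Topo arrays below all DMSO arrays, with 8.91 in KO Topo 1, at -0.32 ± 0.16 (adjusted p = 0.461). The count was 3 of 7 called higher, against 0.253% of genes, and 5 of 7 had all Topo arrays above all DMSO arrays, against 7.62%. Without KO DMSO 3 none of the 3 held (Gnat3 at 0.82, Gng13 at 0.73, Rgs13 at 0.84). Without KO Topo 1 the calls of Gnat3 (0.90) and Rgs13 (0.75) were lost. Without KO Topo 3 those of Gnat3 (1.02) and Gng13 (0.64) were lost. Gng13 was also not called without KO DMSO 1 (0.51) or KO Topo 2 (0.66). In a fit of these 2 groups alone none was called (adjusted p = 0.279 for Gnat3). Same-numbered arrays of KO DMSO and KO Topo deviated together (correlations of 0.167 to 0.412), and in the fit of these 2 groups with the replicate block none was called either (limma adjusted p = 0.0701 for Gnat3, 0.0762 for Gng13 and 0.0971 for Rgs13).

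KO Etopo against KO DMSO gave 0 of 7 members called higher (0% of genes). At an unadjusted p under 0.05 it gave 1 of 7, Gng13, against 707 of 19752 genes in either direction. Gng13 read 9.88 and 10.05 on the KO Etopo arrays, 0.53 ± 0.17 over KO DMSO (limma adjusted p = 0.891), a value near that of WT Etopo (0.56 ± 0.15). All KO Etopo arrays lay above all KO DMSO arrays for 3 of 7 members, against 16.9% of genes. Gnat3, at 9.56 and 9.92, had one array within the range of its DMSO arrays and the other just above it (0.22 ± 0.25).

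The KO EtopoTopo arrays lay far apart for Trpm5, Plcb2, Gnb3 and Itpr3, with SDs of 0.938, 0.946, 1.29 and 0.412, the highest of any group for each. Array 1 read 9.41 for Trpm5, 9.42 for Plcb2, 9.11 for Gnb3 and 9.05 for Itpr3, while array 2 read 10.74, 10.76, 10.93 and 9.63. For Trpm5 and Plcb2 array 1 lay within the KO DMSO range or below it, and array 2 lay above it. Gng13 (10.29 and 10.62) and Gnat3 (10.12 and 10.61) were above every KO DMSO array on both, and so was Rgs13 (11.25 and 11.10). Gng13 rose by 1.02 ± 0.17 (limma adjusted p = 0.00185) and Gnat3 by 0.85 ± 0.25 (adjusted p = 0.0239). That is 2 of 7 called higher, against 11.1% of all genes in this comparison, and 3 of 7 with all arrays above DMSO, against 27.3%. Trpm5 (0.58 ± 0.27, adjusted p = 0.104), Rgs13 (0.49 ± 0.22, adjusted p = 0.099) and Plcb2 (0.26 ± 0.27, adjusted p = 0.449) were not called. Without KO EtopoTopo 1, the array of narrowest range, Trpm5 was called at 1.25 (adjusted p = 0.0248) and Gnat3, at 1.10, was not (adjusted p = 0.11). Without KO EtopoTopo 2, Gnb3 (-1.19) and Itpr3 (-0.64) were called lower and Gnat3, at 0.60, was not called. Without KO DMSO 3 Gnat3 stood at 0.62 (adjusted p = 0.0949). With age as a term neither Gng13 (0.76, adjusted p = 0.154) nor Gnat3 (0.29, adjusted p = 0.551) was called.

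Over both genotypes together, the mean change under Topo was called for 5 of 7 members, against 1.80% of genes called higher. It was 1.20 ± 0.16 for Gnat3 (limma adjusted p = 0.000197), 1.19 ± 0.14 for Rgs13 (adjusted p = 7.43e-05), 0.92 ± 0.17 for Trpm5 (adjusted p = 0.00255), 0.63 ± 0.11 for Gng13 (adjusted p = 0.00118) and 0.61 ± 0.17 for Plcb2 (adjusted p = 0.039). By size, Gnat3 and Rgs13 were in places 2 and 3 of 19752 genes. The call of Plcb2 was lost without 9 of the 12 arrays in turn (0.51 to 0.64). Under EtopoTopo the mean change was also called for 5 of 7, against 14.9% of genes, from 0.78 ± 0.15 for Rgs13 to 1.20 ± 0.17 for Gnat3. With age as a term 1 of these 5 calls held, that of Gng13. Without KO EtopoTopo 1, Gnb3 was called too (0.69, adjusted p = 0.00936), and without KO EtopoTopo 2, Itpr3 was called lower (-0.40, adjusted p = 0.0133). Under Etopo the mean change was called for 0 of 7 (0% of genes). At an unadjusted p under 0.05 the count was 5 of 7, against 918 of 19752 genes in either direction.

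Loss of Aire itself was compared at each treatment. Under DMSO 0 of 7 members were called lower in KO than in WT, where 12.0% of all genes were. The differences ran from -0.20 (Itpr3) to 0.50 (Rgs13, SE 0.20, limma adjusted p = 0.0822). At an unadjusted p under 0.05 the count was 1 of 7, against 5885 of 19752 genes in either direction. Rgs13 was called higher in KO without WT DMSO 1 (0.63, adjusted p = 0.0416) or without KO DMSO 3 (0.66, adjusted p = 0.0345). The 95% interval of the KO difference under DMSO was -0.66 to 0.33 for Trpm5 and -0.26 to 0.67 for Gnat3.

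All KO arrays lay below all WT arrays for Trpm5 and Plcb2 under each drug treatment. The same held for Itpr3 under DMSO, Etopo and Topo, and for Gnat3 under Etopo. Gnb3 lay the other way under Etopo. The share of all genes with such a gap between genotypes was not counted. Under Etopo all KO arrays of Trpm5 (9.56 and 9.97) and Plcb2 (9.69 and 10.09) were below all WT arrays, at -0.68 ± 0.27 and -0.65 ± 0.27. Neither was called (limma adjusted p = 0.113 and 0.13), and the count was 0 of 7 lower against 8.07% of genes. At an unadjusted p under 0.05 it was 2 of 7, Trpm5 and Plcb2, against 4439 of 19752 genes in either direction. In a fit of these 2 groups alone both were called (adjusted p = 0.0207 and 0.0269). Under Topo the KO arrays of Trpm5 and Plcb2 (10.23, 10.19 and 10.32) were again all below the WT arrays, at -0.51 ± 0.24 and -0.54 ± 0.24. Here 0 of 7 were called lower, against 9.62% of genes. At an unadjusted p under 0.05 there were 5245 of 19752 genes in either direction and 3 of 7 members. The other of these 3 was Itpr3 at -0.43 ± 0.16 (adjusted p = 0.0824), which was called without KO Topo 3 (-0.56, adjusted p = 0.0367). Trpm5 was called without the arrays KO Topo 1 and KO EtopoTopo 1 (-0.57, adjusted p = 0.0414). Under EtopoTopo 2 of 7 members were lower, against 6.12% of genes. Trpm5 was lower by -1.08 ± 0.27 (adjusted p = 0.0101) and Plcb2 by -1.28 ± 0.27 (adjusted p = 0.0027). Both calls rest on KO EtopoTopo 1: without it Trpm5 stood at -0.41 (adjusted p = 0.42) and Plcb2 at -0.61 (adjusted p = 0.157). Without KO EtopoTopo 2, Gnb3 (-1.64) and Itpr3 (-0.68) were called lower as well. Without WT EtopoTopo 1 and 2, without KO Topo 1 and KO EtopoTopo 1, or in a fit of these 2 groups alone, none of the members was called. Gng13 differed little between genotypes, at -0.05 ± 0.17 under EtopoTopo (95% interval -0.39 to 0.30) and 0.16 ± 0.15 under Topo.

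**Figure D3:**
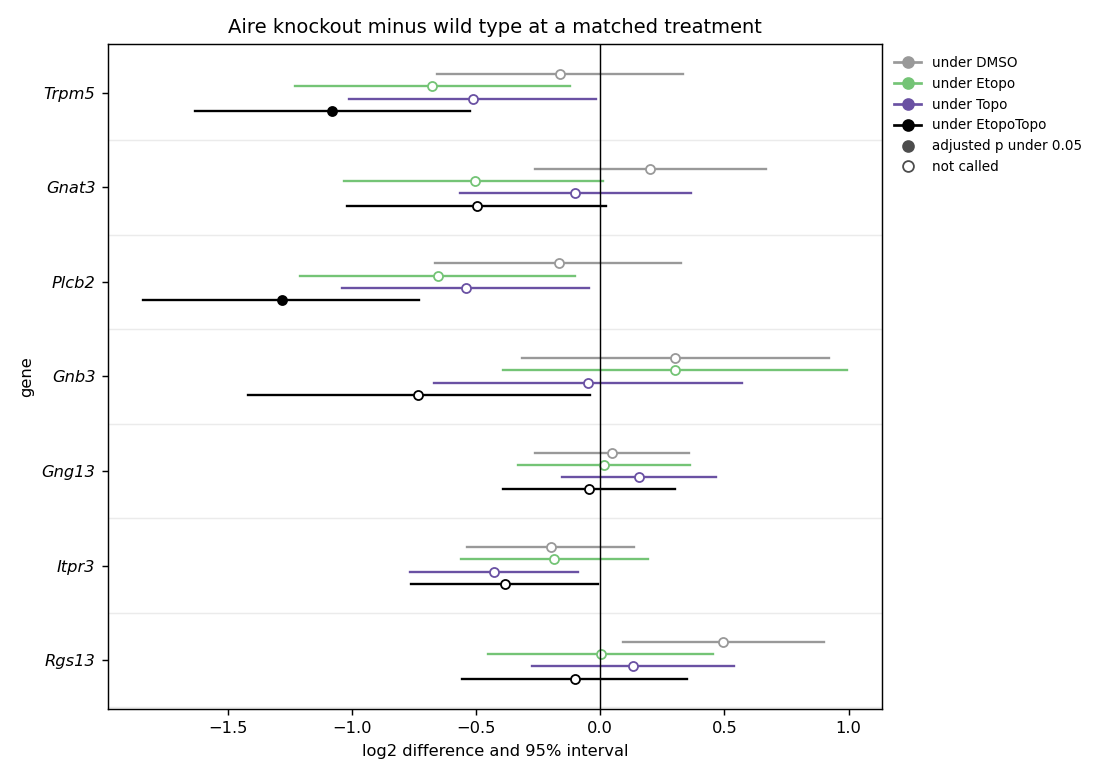
Difference of each cascade gene between the Aire knockout and the wild type at the same treatment (x axis, log2, with 95% intervals of the limma fit). The filled points are Trpm5 (-1.08) and Plcb2 (-1.28) under both drugs, and all other differences were not called.

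Whether a drug effect differed between genotypes was tested as an interaction, KO change minus WT change. It was called for 0 of 7 members under Etopo (0% of genes in either direction), 0 of 7 under Topo (0.0759%) and 0 of 7 under EtopoTopo (2.46%). At an unadjusted p under 0.05 the counts were 1, 0 and 4 of 7, against 907, 936 and 2912 of 19752 genes in that order. Under EtopoTopo the estimates were -1.12 ± 0.36 for Plcb2 (limma adjusted p = 0.118), -1.03 ± 0.45 for Gnb3 (adjusted p = 0.284), -0.92 ± 0.36 for Trpm5 (adjusted p = 0.226) and -0.70 ± 0.34 for Gnat3 (adjusted p = 0.336). Without KO EtopoTopo 1 they moved to -0.45 for Plcb2, -0.12 for Gnb3 and -0.25 for Trpm5. Without KO EtopoTopo 2 these 3 were called, at -1.78, -1.94 and -1.58. For Gng13 the interaction was -0.09 ± 0.22 under EtopoTopo and 0.11 ± 0.21 under Topo. A weaker response of Trpm5 and Plcb2 in KO was thus not called by the test of the difference itself.

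The 8 groups were ordered by mean for each member. Neighbours in such an order have the closest means, so their overlap does not show that levels are graded. The share of all genes with such overlaps was not counted. Of the 7 neighbouring pairs of groups, 6 overlapped in at least 1 array for Trpm5, Gnat3, Plcb2, Itpr3 and Rgs13, all 7 for Gnb3 and 5 for Gng13. For Trpm5 the order from the lowest mean was KO DMSO (9.49), WT DMSO (9.65), KO Etopo (9.76), KO EtopoTopo (10.07), KO Topo (10.23), WT Etopo (10.44), WT Topo (10.75) and WT EtopoTopo (11.15), with a gap only below the last. For Gng13 the gaps lay above both DMSO groups and below both EtopoTopo groups, irrespective of genotype. For Rgs13 the 2 Topo groups had the highest means (11.57 and 11.70), but KO Topo 2, at 11.23, lay among the arrays of other groups. By mean, Trpm5 and Plcb2 were highest in WT EtopoTopo, Gng13 in both EtopoTopo groups and Rgs13 in both Topo groups.

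Across the 22 arrays the members differed in how closely they moved together, as a description of arrays that share groups, treatment and processing. Trpm5 and Plcb2 had a correlation of 0.967, and 0.944 once group means were taken out. Without KO Topo 1 and KO EtopoTopo 1 these values were 0.973 and 0.890. Trpm5 and Gnat3 had 0.873 (0.704 within groups), and Gnat3 and Rgs13 0.805 (0.440 within groups). Rgs13 had -0.10 within groups with the mean of the other 6 members, against 0.92 for Trpm5 and 0.93 for Plcb2. Without the same 2 arrays these values were 0.24, 0.88 and 0.84. Itpr3 had -0.04 with the mean of the other 6, and between -0.52 and 0.37 with single members. Without the same 2 arrays its range was -0.40 to 0.07, and its highest value, with Gnb3, turned from 0.37 to -0.40.

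The genes whose level was most like the mean of the members over the 22 arrays were Lrmp (r = 0.960), Alox5ap (0.934), Tas2r108 (0.928), Nrg4 (0.924), Cited2 (0.917), Sh2d7 (0.917), Pou2f3 (0.910), Pik3r5 (0.905), Ptpn18 (0.904) and Pik3cg (0.901). Lrmp, a protein of the endoplasmic reticulum membrane, changed by 0.90 in WT Topo and 1.25 in WT EtopoTopo. With group means taken out, the 10 were Alox5 (0.947), Ano7, Pik3r5, Ly6e, Dclk1, Rbbp9, Myo1d, Grina, Nup62cl and Pik3c2b (0.885). The rank correlation was lower than r for each of these 10, down to 0.71 for Grina (r = 0.893). Both rankings include KO Topo 1 and KO EtopoTopo 1 and were not repeated without them. Pik3r5, a regulatory subunit of phosphoinositide 3-kinase gamma, stands in both lists.

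Each cascade gene has paralogs in its gene family, which need not serve the same step, and 63 of 66 listed were measured. In WT Topo 1 of 63 was called higher (Rgs21) and 1 lower (Trpm8), and their median change was 0.03, against 0.79 for the members. In WT EtopoTopo 2 of 63 were higher (Itpr2 and Trpm4) and 6 lower, with a median of 0.02, against 1.11 for the members. In both comparisons 0 paralogs exceeded Gnat3 (14 alpha subunits), Gnb3 (4), Gng13 (11), Plcb2 (9), Trpm5 (7) or Rgs13 (17). The paralog with the highest change in both comparisons was Rgs21, a regulator also known from taste cells, which rose by 1.19 under Topo (limma adjusted p = 0.0218) and stood at 0.79 under both drugs (adjusted p = 0.0635). Outside the inositol trisphosphate receptors, the brightest paralog of each family stood, in WT EtopoTopo, at -0.01 for the alpha subunit Gnai2, -0.27 for the beta subunit Gnb1, 0.23 for the gamma subunit Gng12, 0.31 for the phospholipase Plcb4, -0.12 for the channel Trpm7 and 0.03 for Rgs5, none called. In the family of inositol trisphosphate receptors, 1 paralog was measured: Itpr2 rose by 0.68 ± 0.16 in WT EtopoTopo (adjusted p = 0.00685), while the cascade member Itpr3 was at -0.16. In KO EtopoTopo, a group of 2 arrays, Itpr2 stood at 0.04 ± 0.17 (adjusted p = 0.878). The difference between its KO and WT changes was not called by the interaction test.

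**Figure D4:**
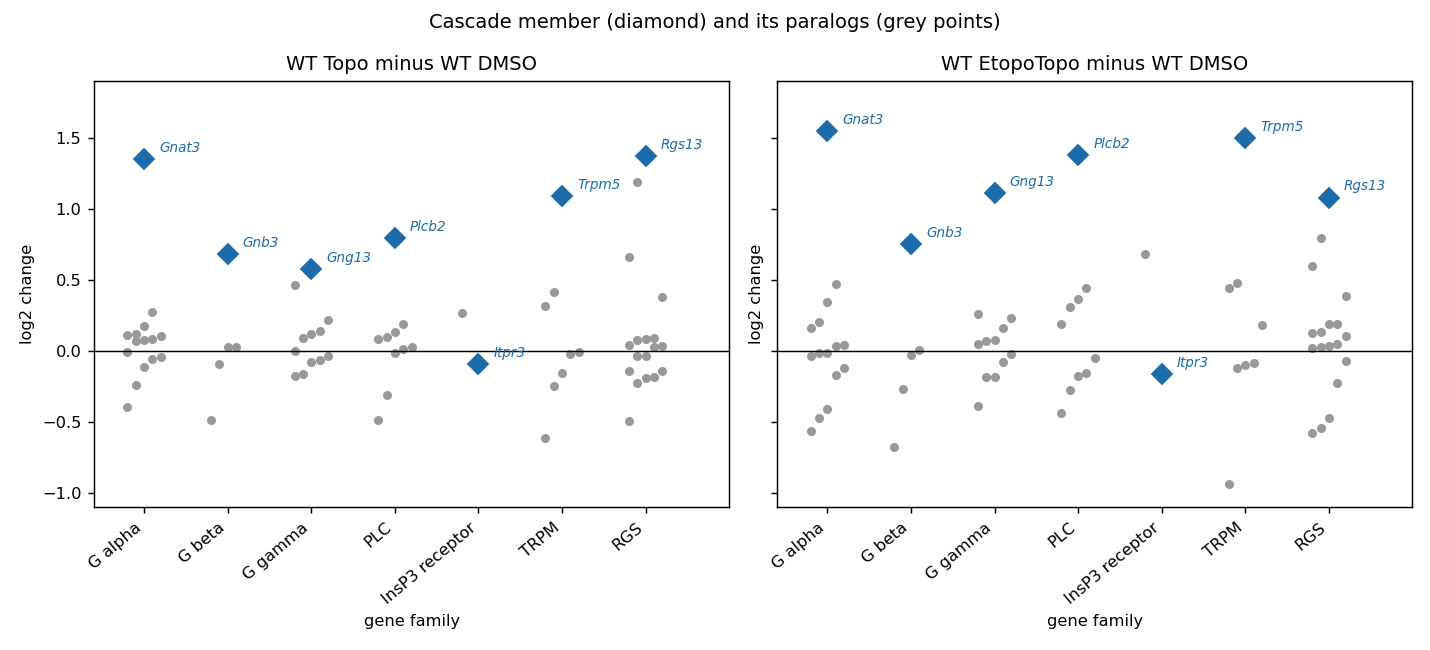
Log2 change of each cascade gene (diamonds) and of its measured paralogs (grey points) in WT Topo and WT EtopoTopo against WT DMSO, by gene family. In 6 of the 7 families the cascade gene lies above all its paralogs, and the highest grey point is Rgs21 in WT Topo, at 1.19.

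Other steps of the pathway were counted from lists. Of 38 receptors that feed the cascade (Tas1r, Tas2r and other inputs), 5 rose in WT Topo and 22 in WT EtopoTopo, 3 in KO Topo and 17 in KO EtopoTopo, and 0 were called lower by limma in any of the 4. The shares of all genes called higher were 0.830%, 3.60%, 0.253% and 11.1% in that order. The bitter receptors Tas2r115 (2.30 ± 0.35, limma adjusted p = 0.000241) and Tas2r108 (1.82 ± 0.23, adjusted p = 5.55e-05) led in WT EtopoTopo, and Tas2r108 (1.45 ± 0.23, adjusted p = 0.00218) and Tas2r117 (1.08 ± 0.25, adjusted p = 0.0254) in WT Topo. The smallest called changes were those of Tas2r102 (0.54) and Tas2r137 (0.96) in WT Topo and of Tas2r125 (0.59) and Tas2r126 (0.63) in WT EtopoTopo. The median of the 38 was 0.29 in WT Topo and 0.64 in WT EtopoTopo. Of 10 genes of calcium release and output downstream, 0 were called in WT Topo, and 1 rose in WT EtopoTopo, the calcium pump Atp2a3 (0.82 ± 0.21, adjusted p = 0.0155). The median of the 10 was 0.00 and 0.03.

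Other genes that mark tuft cells were called in part. Of 8 transcription factors, Pou2f3 rose in WT Topo (0.64 ± 0.17, limma adjusted p = 0.0447), and Pou2f3 (0.61 ± 0.17, adjusted p = 0.0212), Gfi1b (0.63 ± 0.12, adjusted p = 0.00168) and Runx1 (0.93 ± 0.19, adjusted p = 0.00279) rose in WT EtopoTopo. In KO Topo 0 of the 8 were called by limma, and in KO EtopoTopo 2 were higher and 2 lower (Spib at -0.80 and Sox9 at -0.43, named after their values were seen). Of 12 genes of tuft structure and signalling, 4 rose in WT Topo and 8 in WT EtopoTopo, with medians of 0.48 and 0.91. The largest were the kinase Bmx (1.25) and Sh2d7 (0.91) in WT Topo, and Sh2d6 (1.66) and Bmx (1.51) in WT EtopoTopo. The smallest that were called were Dclk1 (0.72), the kinase that marks tuft cells, and Avil (0.90), an actin regulator, in WT Topo, and Espn (0.53) and the interleukin receptor Il17rb (0.82) in WT EtopoTopo. Of 7 effector genes, 2 rose in WT Topo and 4 in WT EtopoTopo, which were Hpgds (0.54), Chat (1.06), Alox5 (1.34 ± 0.21, adjusted p = 0.000261) and Alox5ap (1.24 ± 0.15, adjusted p = 2.26e-05). The last 2 serve leukotriene synthesis, and they rose in WT Topo as well (0.88 and 1.02). Of the 12 structure genes 1 was higher and 2 lower in KO EtopoTopo, where 11.1% of all genes were higher and 11.7% lower. The mean level of these 12 was 9.61 in KO EtopoTopo 1 and 10.29 in KO EtopoTopo 2, so it too was lower on array 1, as were Trpm5 and Plcb2, and its part in their difference between genotypes was not tested.

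Markers of other cells moved as follows beside the rise of the members in the wild type. Of all genes, 1.38% were called lower in WT Topo, 7.28% in WT EtopoTopo and 0.780% in KO Topo. Of 19 mitosis genes, 5 fell in WT Topo and 17 in WT EtopoTopo. The largest falls were those of Ccnb2 (-0.84) and Cenpe (-0.79) in WT Topo and of Top2a (-1.29) and Cdk1 (-1.15) in WT EtopoTopo, and the smallest called were Tpx2 (-0.68) and Kif20a (-0.69), and Cenpf (-0.41) and Kif23 (-0.55). In the knockout 14 fell in KO Topo and in KO EtopoTopo. The mean of this list per array was 8.69 to 8.85 in WT DMSO, 7.96 to 8.35 in WT Topo and 7.78 to 8.12 in WT EtopoTopo. Of 19 mature MEC genes, 1 fell in WT Topo (Cd40, -0.72 ± 0.12) and 4 in WT EtopoTopo, which were Cd83 (-1.01 ± 0.15), Ccl17 (-0.90 ± 0.26), Cd40 (-0.84) and Ciita (-0.70). Of 16 thymocyte genes Thy1 fell in WT Topo (-0.79), and Thy1 (-1.31) and Cd4 (-1.01) fell in WT EtopoTopo, and the mean of the list was 7.43 to 8.33 in WT DMSO and 7.03 to 7.23 in WT EtopoTopo. Of 10 genes of cornified MECs, 1 rose in WT Topo (Spink5, 0.83 ± 0.22), and in WT EtopoTopo Krtdap rose (0.69) while Klk5 (-1.05) and Klk7 (-0.46) fell. Of 12 macrophage and dendritic cell genes Adgre1 fell in WT Topo (-1.14), and Adgre1 (-1.36) and Xcr1 (-0.54) fell in WT EtopoTopo. Of 10 cortical epithelial genes 0 were called by limma in WT Topo, and Cd83, which is also in the mature MEC list, and Enpep (-0.61) fell in WT EtopoTopo. Of 7 B cell genes 0 were called in WT Topo, and in WT EtopoTopo Cr2 rose (0.50) and Fcer2a fell (-0.73). Of 8 neuroendocrine genes 0 were called by limma in either comparison. The part of these changes in the rise of the members was not tested.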

How the data were processed

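Total RNA of sorted MECs was amplified and hybridised to Affymetrix Gene ST arrays, per the series' design text. The authors deposited 1 intensity per probe and array, in linear units; the submitters' processing notes list RMA and Affymetrix Power Tools and give no version. Values on a log scale had been assumed when the tests were planned, so log2 was taken, without a pseudocount or further normalization. The platform annotation gave a single symbol for 21425 of 24922 probes, and those with several (1399) or without any (2098) were left out. The brightest probe per symbol left 19752 genes. The fit was lmFit with 1 mean per group over 22 arrays and eBayes in limma 3.58.1 (R 4.3.3), with 14 residual and 7.22 prior degrees of freedom, tested on simulated data. Benjamini-Hochberg adjustment ran over the 19752 genes in each of 19 comparisons. Precision is limited by the number of arrays.

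Members, gene lists, motifs and tests were chosen with earlier results of these data known, so lists are described by counts and medians and are no independent evidence. Genes outside the members were named by a rule: in each list, the 2 largest and 2 smallest changes among called genes in WT Topo and WT EtopoTopo, the brightest paralog of each member, and the 10 genes most like the members' mean. Xist, Spib and Sox9 were named after their values were seen. Replicate numbers came from the titles. Over 9 pairs of groups of 3, every same-numbered pair correlated over 0.1 for WT DMSO with WT Etopo and for KO DMSO with KO Topo, and not for the other 7. Alternatives were quantile normalization, age as a term, a replicate block, only the groups compared, a filter on dim genes, the mean of a gene's probes, an intensity trend, and leaving out arrays. Leaving out the 2 KO arrays of narrowest range, and the 3 arrays labelled male, and a replicate block in the fits of those 2 comparisons alone, were chosen after seeing the data.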

Additional observations from a re-analysis of the deposited data

How the results depend on the processing

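The number of called members, of 7 in each comparison, changed as follows. WT Etopo had 2 instead of 0 in the fit of its 2 groups with the replicate block. WT Topo had 6 instead of 4 in a fit of the groups compared, 5 with age as a term, 2 without both DMSO arrays with thymocyte transcripts and 2 without the 3 arrays labelled male. WT EtopoTopo had 6 instead of 5 after quantile normalization and with the groups compared alone, and 2 without WT EtopoTopo 1 and 2. KO Topo had 1 instead of 3 without the 2 KO arrays of narrowest range 2 without the thymocyte DMSO arrays, and 0 in a fit of the groups compared, with or without the replicate block. KO EtopoTopo had 4 instead of 2 after quantile normalization, 0 with age as a term and 0 with the groups compared alone. KO against WT had 2 instead of 0 under Etopo with the groups compared alone. Under Topo it had 1 after quantile normalization, 1 without these 2 arrays and 2 with the groups compared alone, instead of 0. Under EtopoTopo it had 0 instead of 2 without WT EtopoTopo 1 and 2, without the 2 KO arrays of narrowest range, and with the groups compared alone. WT EtopoTopo against WT Topo had 1 instead of 0 after quantile normalization and 3 with the groups compared alone. WT EtopoTopo against WT Etopo had 4 instead of 1 after quantile normalization and 4 with the groups compared alone, and 0 without WT EtopoTopo 1 and 2, with age as a term, and without the arrays labelled male. The mean of genotypes under EtopoTopo had 1 instead of 5 with age as a term and 6 without the 2 KO arrays of narrowest range. Under Topo that mean had 6 instead of 5 without these 2 arrays, and 4 without the thymocyte DMSO arrays or the arrays labelled male. The causes were not tested.

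Leaving out 1 array at a time gave 2 to 3 in WT Topo, 5 to 5 in WT EtopoTopo, 0 to 3 in KO Topo, 1 to 3 in KO EtopoTopo, 0 to 1 for KO against WT under DMSO and under Topo, and 0 to 4 under EtopoTopo. It gave 0 to 3 for the EtopoTopo interaction, 0 to 2 for WT EtopoTopo against WT Etopo, 4 to 5 for the Topo mean, 5 to 6 for the EtopoTopo mean, and 0 in the other comparisons. No called change turned its sign. In 83 refits over 29 member changes, an estimate that was called in neither fit crossed 0.

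The replicate block over all 22 arrays changed none of the 133 member results, with 4 called in WT Topo and 5 in WT EtopoTopo. The dim-gene filter, the mean of probes and the intensity trend also changed none of the 133. With 1 array left in a group, its spread was assumed to be that of the other groups.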
